A study of Mus musculus with 96 samples.

Results

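The 7 spleen libraries of a 96-library mouse series were compared with the libraries of 6 other organs: kidney, liver, small intestine, heart, brain and skeletal muscle. A library entered the comparison only if it held Pou5f1, which encodes the pluripotency factor Oct4, below 1 CPM (counts per 1000000 counts of the library) and had at most 50% of its counts on mitochondrially encoded genes. This left 5 of the 7 spleen libraries and 55 of the 89 libraries of the other organs. Skeletal muscle (13 of 15) and brain (12 of 15) kept most of theirs, kidney and liver kept 9 of 15 each, and small intestine (6 of 15) and heart (6 of 14) kept fewest. A gene was called spleen-high or spleen-low only when it differed in the same direction from each of the 6 organs, so a difference from 1 unusual organ was not counted as a property of spleen.

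The mice were 2 months old and were either WT or of 1 of 4 strains, 4Fj, 4FsB, 4Fk and 4FsA, that were made for switching on reprogramming factors in the living animal. The labels list spleen samples from WT (3), 4Fj (1) and 4FsA (3), and samples from all 5 genotypes for the other organs, 3 each apart from 2 for WT heart. No sample of spleen is listed for 4FsB or 4Fk. Total RNA came from frozen tissue. The table names each library by an organ code and a running number and gives no genotype, so the genotype of a given spleen library is unknown, each organ's libraries mix genotypes, and the mix differs between spleen and the others. The organs share running numbers, but the labels do not say what a number stands for. Spleen libraries are called here by their running numbers: libraries 1, 2, 3, 7 and 8 were kept, and libraries 4 and 9 were set aside. The labels do not say that samples of a group came from separate animals, so p-values measure only the spread between these samples.

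The spleen is a blood filter and a lymphoid organ. Its white pulp holds B cell follicles and T cell zones that stromal cells arrange with chemokines, and its red pulp holds sinuses in which macrophages take up old red cells and recover their iron. In mice the red pulp also carries blood-forming cells that make red cells, granulocytes and platelets in adult life. In a bulk sample, more cells of a type and more RNA per cell cannot be told apart.

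Levels are given as normalised CPM, which is the estimated count per 1000000 counts of a library, divided by that library's scaling factor (TMM, a trimmed mean over genes). Values for spleen are always listed in the order of libraries 1, 2, 3, 7 and 8. A difference is the fitted log2 difference of spleen from the organ nearest to it for that gene. Its standard error (SE) is worked back from edgeR's quasi-likelihood test, as the absolute difference divided by the square root of F. The adjusted p is the largest of the 6 Benjamini-Hochberg values of that test. That p describes the least favourable of the 6 comparisons, which need not be the one with the organ named beside it. The kept spleen libraries held 7271613 to 13212004 counts, within the 6624474 to 17706733 of all kept libraries, and 3 counts correspond to 0.169 to 0.453 CPM. That floor covers counting error only.

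Of 19945 genes tested, 1293 were spleen-high (6.48%) and 787 were spleen-low (3.95%). Among them, 400 were at least 8-fold higher than every organ (2.01%) and 51 at least 8-fold lower (0.256%). In 750 genes all 5 spleen libraries lay above all 55 other libraries (3.76%), and 726 of these were spleen-high. In 226 genes all 5 lay below all 55 (1.13%), and 218 of these were spleen-low. The balance of high and low calls depends on the scaling. Spleen libraries had a median scaling factor of 1.86, against 0.76 to 1.52 in the other organs, so that scaling moves spleen down by 0.35 in log2 against brain and by up to 1.63 against skeletal muscle. Relative to library totals alone, 2995 genes were high (15.0%) and 155 were low (0.777%). The share of high genes among all calls was 62.2% with the scaling factors, 95.1% with library totals and 96.5% with limma on library CPM. All 1293 high calls held with library totals, but leaving out a scaling that lowers spleen against every organ could hardly lose one. Of the 787 low calls, 155 held. Low calls are therefore given below together with their result under library totals. Counts in the lists below are to be read beside the shares over all genes tested. These are 6.48% high and 3.95% low, and for separation from all 55 other libraries 3.76% above and 1.13% below.

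The organ label was checked with 2 markers of lymphocytes. Cd79a (ENSMUSG00000003379), a signalling chain of the B cell receptor, was at 393, 353, 484, 825 and 856 normalised CPM in spleen. No kept library of another organ exceeded 98.3, the highest of the small intestine libraries, whose median was 5.33. The difference was 4.09 ± 0.90 against small intestine (adjusted p 0.000138). Cd3e (ENSMUSG00000032093), a chain of the T cell receptor complex, was at 47.3, 60.9, 45.3, 68.6 and 82.5, and the highest other library, from skeletal muscle, was at 13.4. Its difference was 3.50 ± 0.82 against small intestine (adjusted p 0.000321). For both genes all 5 spleen libraries lay above all 55 others.

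**Figure D1:**
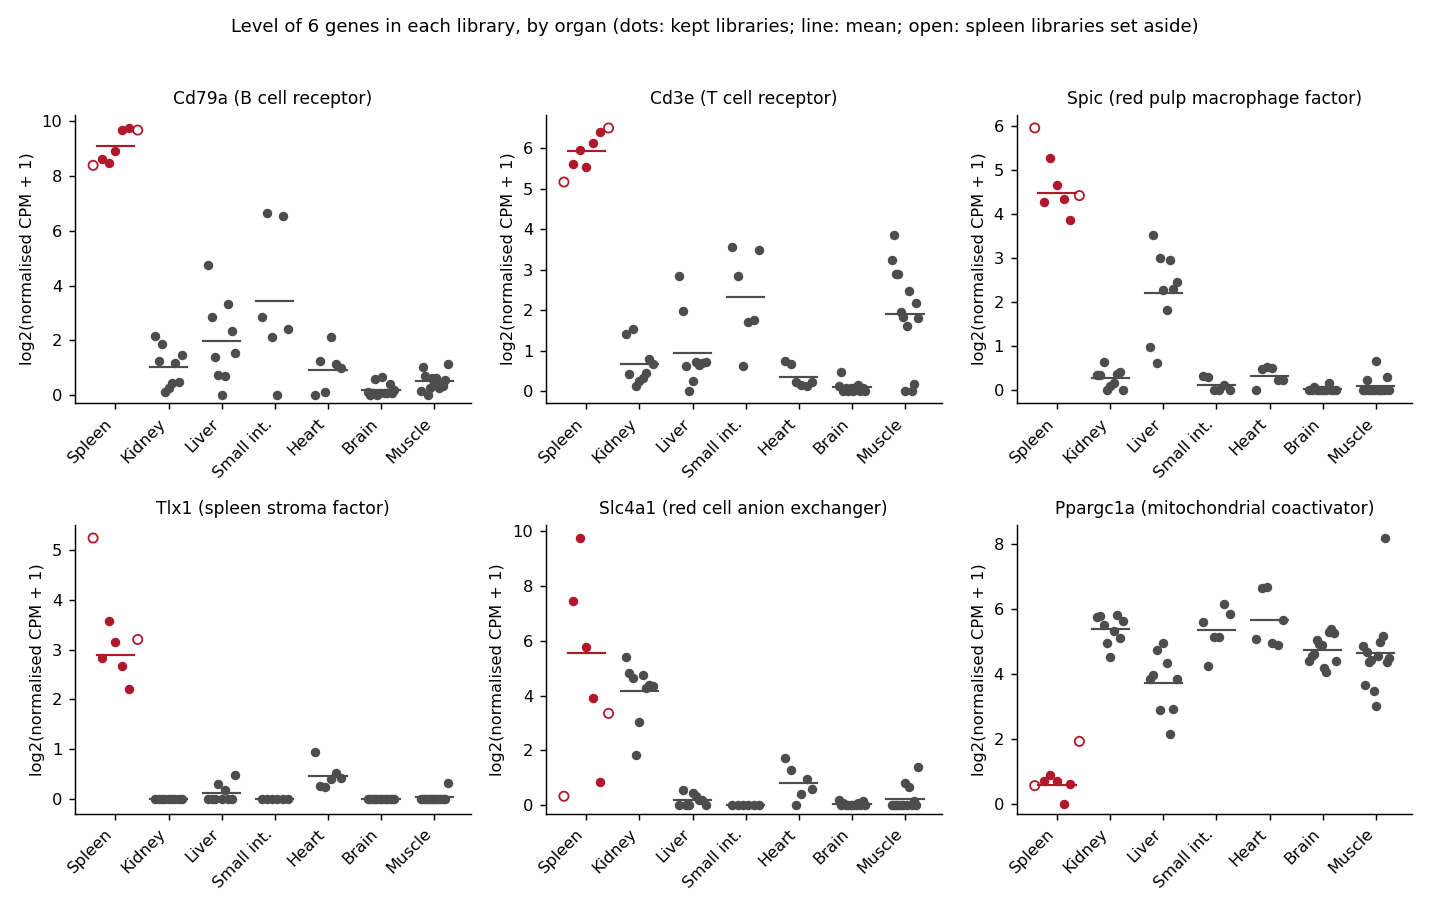
Level of 6 genes as log2(normalised CPM + 1) in each kept library (filled points, spleen in red) by organ, with the mean as a line. Open points are spleen libraries 4 and 9, which were set aside. Cd79a and Cd3e are above every other library in all 5 kept spleen libraries, Slc4a1 spreads from 853 to 0.815 within spleen, and Ppargc1a is at 0 to 0.865 in spleen.

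Genes that mark all white blood cells set spleen apart. Of 26 genes of the common white-cell list, 24 were spleen-high and 0 were spleen-low, and in 24 the spleen libraries did not overlap any other library. Over all genes tested, 6.48% were spleen-high, and in 3.76% all 5 spleen libraries lay above all 55 others. The median over the list of each gene's smallest difference was 3.20 in log2, beside -1.94 over all genes tested. Ptprc, which encodes the white-cell surface phosphatase CD45, was at 524, 457, 660.0, 389 and 429, and the highest other library held 121. The difference was 3.56 ± 0.59 against small intestine (adjusted p 1.16e-06). Lcp1, an actin-bundling protein of white cells, was at 578, 599.6, 683, 632 and 541, with a difference of 2.63 ± 0.43 against liver (adjusted p 5.77e-07). Its 5 spleen values lay within a narrow range, from 541 to 683.

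Several of these proteins have a close relative that most cells use, and 17 such pairs were compared. The pairs were chosen with earlier results of these data known, so their split is a description and not a test. In all 17 pairs the white-cell member was spleen-high. With library totals all 17 stayed high, which the direction of the scaling nearly fixes in advance. None of the 17 relatives was spleen-high and 4 were spleen-low (Cttn, Nckap1, Fermt2 and Wasl), and 13 were called in neither direction. With library totals 1 relative was high (Pik3ca) and 0 were low. Rac2, the white-cell form of a small GTPase that drives actin assembly, differed from the 6 organs by 3.45 to 8.10, and its relative Rac1 by -1.43 to 0.16. Nckap1l, the white-cell subunit of the WAVE actin-nucleating complex, differed by 3.20 to 6.27, and Nckap1 by -4.46 to -2.11. Was, the white-cell activator of the Arp2/3 complex, differed by 3.19 to 6.19, and Wasl by -2.43 to -0.54. Wasl and Cttn changed direction against skeletal muscle with library totals, where their differences were 1.04 and 0.02. The smallest difference among white-cell members was that of Plcg2, a phospholipase of B cell receptor signalling, at 1.59.

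**Figure D2:**
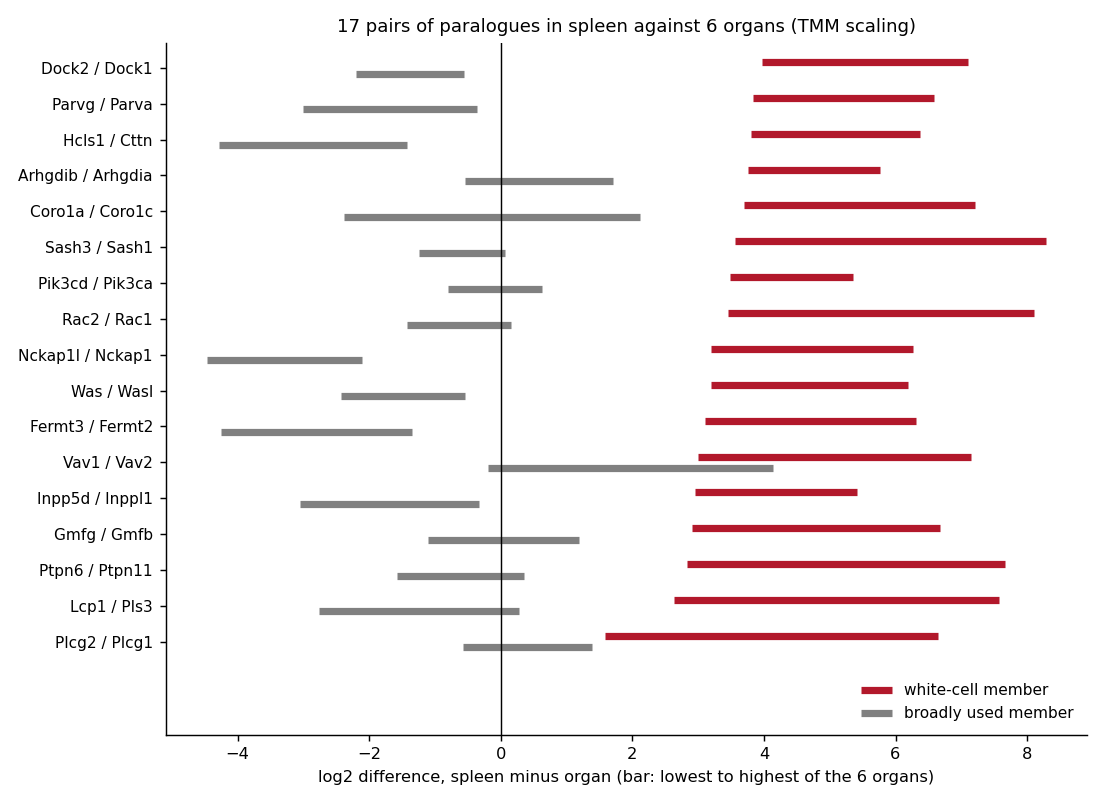
Log2 difference of spleen from each of the 6 organs for the white-cell member (red) and the broadly used member (grey) of 17 pairs of related genes. Each bar runs from the lowest to the highest of the 6. All 17 white-cell members lie above 0 against every organ, and 0 of 17 broad members do.

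B cell genes were among the most completely spleen-high lists. Of 22, 21 were spleen-high, and all 22 had spleen libraries above every other library. The median smallest difference was 3.72. Ms4a1, which encodes CD20, was at 202, 179, 238, 154 and 157 with a difference of 3.37 ± 0.82 against small intestine (adjusted p 0.000483). Cd79a was higher in libraries 7 and 8 than in libraries 1 to 3, and Ms4a1 did not follow that order. Of 8 marginal zone B cell genes only Notch2, the receptor that directs cells to that zone, was called, and its call was lost without library 2.

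Antibody genes varied much more between spleen libraries. Ighm, the constant region of IgM, was at 6959, 9207, 6442, 1963 and 2273, with a difference of 5.24 ± 0.93 against skeletal muscle. Its largest adjusted p over the 6 organs was 0.000471 (quasi-likelihood test). Ighg1, the constant region of IgG1, was at 1106, 56.8, 206, 9.28 and 59.1 and was highest in library 1 and lowest in library 7. Ighe, the constant region of IgE, was at 178, 3.27, 2.12, 0.616 and 0.889. Library 1 thus carried nearly all of the IgE signal in spleen. Jchain, which joins IgM and IgA subunits, was at 642, 894, 642, 364 and 230.3, with a difference of 2.15 ± 0.88 against small intestine (adjusted p 0.0357), and its call was lost without library 1, 2 or 3. Igha, the constant region of IgA, was at 316, 910.2, 1036, 425 and 165 and was not called, with a median of 398 in small intestine. In all, 9 of 16 plasma cell genes were spleen-high. Xbp1, Prdm1, Derl3 and Tnfrsf17, which serve antibody secretion and plasma cell survival, were not called. Among the variable, diversity and joining segments that were tested, 40 of 107 immunoglobulin and 6 of 6 T cell receptor segments were spleen-high. The filter on low counts bears on these numbers, since a segment near 0 in the other organs was tested only if spleen held it. They are therefore a description, and the share over all genes tested was 6.48%. Assignment of counts among near-identical segments and constant regions is uncertain.

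T cell genes were as complete. Of 27, 25 were spleen-high, with a median smallest difference of 3.86, and in 24 the spleen libraries did not overlap the rest. Cd8b1, a chain of the co-receptor of cytotoxic T cells, was at 19.4, 16.3, 46.0, 59.2 and 73.7, with a difference of 5.47 ± 0.74 against liver (adjusted p 5.91e-08). Foxp3, the regulator of regulatory T cells, was at 15.4, 15.0, 12.8, 8.18 and 10.4, with a difference of 4.61 ± 0.92 against small intestine (adjusted p 3.18e-05). Cd8b1 was highest in libraries 7 and 8 and Foxp3 was lowest there. The exceptions were Bcl11b, a T cell regulator that brain libraries held at a median of 76.1, and Ctla4, an inhibitory receptor, at 1.54 ± 0.87 from heart. Zap70, the kinase of the T cell receptor, was called at 1.59 ± 0.51 against liver (adjusted p 0.00669), but a liver library at 43.7 overlapped the spleen values of 41.7 to 51.7.

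Of 13 natural killer and cytotoxic genes 10 were spleen-high. Prf1, which encodes perforin, differed by 4.69 ± 0.96 from small intestine, and Nkg7, a cytotoxic granule protein, was at 36.3, 71.6, 41.3, 25.8 and 31.9. Gzma, a granule protease, was lower in spleen than in small intestine by 4.57 in log2, and Gzmb, another, was not called, at -0.40 ± 0.95. Of 13 dendritic cell genes 8 were spleen-high.

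Antigen presentation genes were split. Of 15, 9 were spleen-high, and in 12 the spleen libraries did not overlap other libraries. Ciita, the master activator of MHC class II genes, differed by 2.02 ± 0.71 from small intestine. H2-Eb1 differed by 1.94 ± 0.59 and H2-Ob, a chain of a modulator of class II loading, by 3.88 ± 0.82. Cd74, the class II invariant chain, was at 3682, 4469, 4399, 3355 and 3695 and was not called, since its difference from small intestine was 1.26 ± 0.58 with an adjusted p of 0.0638. H2-Aa, a class II chain, was at 1050.0, 1291, 1277, 1124 and 1371 and was not called either, at 1.19 ± 0.59 with an adjusted p of 0.0875. Both were called with library totals, under which 14 of the 15 genes were spleen-high, and with all 96 libraries in the fit all 15 were. The small intestine libraries differed among themselves here. Libraries 2 and 14 of that organ held Cd79a at 98.3 and 92.9, and the other 4 held at most 6.3.

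Of 24 antigen receptor signalling genes 16 were spleen-high. Syk, a kinase of B cell receptor signalling, was at 348, 238, 448, 266 and 296, with a difference of 2.90 ± 0.47 against heart (adjusted p 6.82e-07). Lck, the first kinase in T cells, differed by 3.99 ± 0.64, and Btk, a kinase needed for B cell maturation, by 3.90 ± 0.81. The 8 genes not called were Pik3ap1, Bcl10, Fyn, Prkcq, Prkcb, Rasgrp1, Rasgrp2 and Rasgrp3. Rasgrp1, which activates Ras in T cells, was lower in spleen than in brain by 2.37 in log2, where its median was 219. Among genes of receptor gene assembly, Rag1, Rag2 and Igll1 were at 0.15 or less in spleen and did not pass the filter on low counts, and 2 of the 5 genes tested in that list were spleen-high (Vpreb3, a surrogate light chain relative, and the division gene Mki67).

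**Figure D3:**
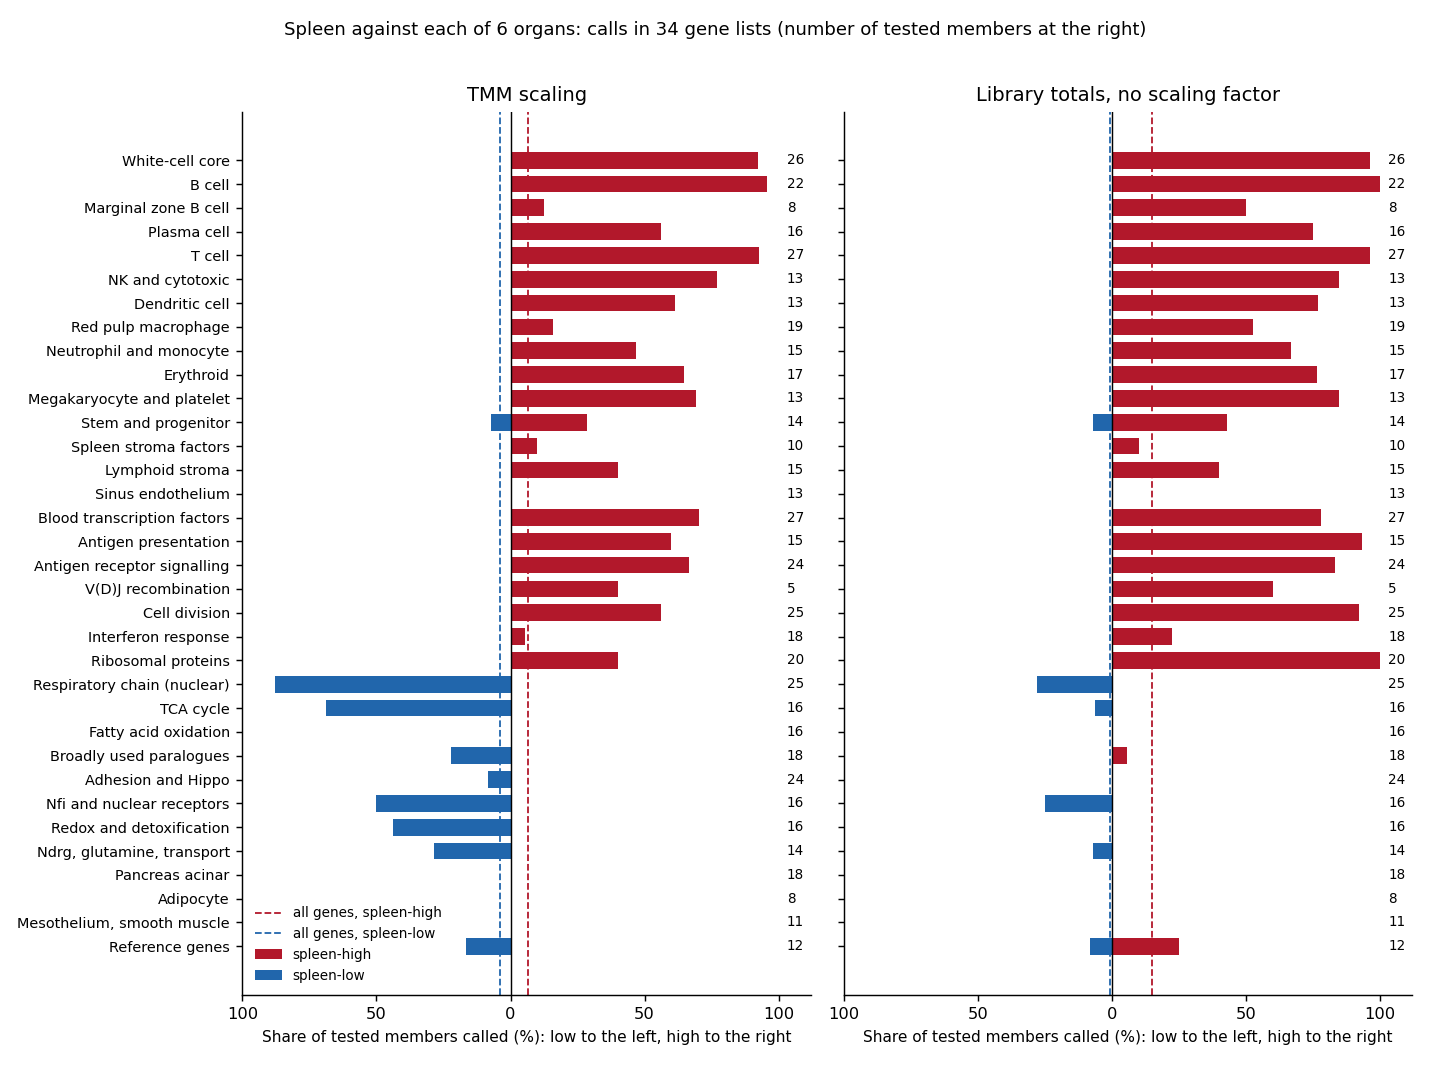
For each of 34 gene lists, bars give the percentage of tested members called spleen-high (red, to the right) and spleen-low (blue, to the left), with TMM scaling in the left panel and library totals in the right panel. The number tested stands at the right and dashed lines give the shares over all genes. The T cell list is at 25 of 27 high and 26 of 27 high, and the nuclear respiratory chain list goes from 22 of 25 low to 7 of 25 low.

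Transcription factors of blood cells followed. Of 27, 19 were spleen-high, with a median smallest difference of 1.86, and in 17 spleen libraries did not overlap the rest. Spi1, which encodes PU.1, a regulator of myeloid and B cells, was at 60.5, 97.9, 70.9, 67.6 and 97.9, with a difference of 2.00 ± 0.41 against liver (adjusted p 3.48e-05). Ikzf1, which encodes the lymphoid regulator Ikaros, was at 175, 163, 202, 169 and 188, with a difference of 3.87 ± 0.64 against small intestine (adjusted p 1.12e-06). Pax5, the factor that fixes B cell identity, was at 158, 116, 213, 265 and 267, with a difference of 3.88 ± 0.91 against small intestine (adjusted p 0.000306). Those not called were Fli1, Elf1, Elf4, Myb, Bcl11a, Ikzf4, Relb and Gata3.

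The promoters of the called genes were searched for short motifs, among them that of PU.1 but none for Ikaros or Pax5. The search covered the 250 bases before the start and both strands, in 1151 windows of 913 spleen-high genes, 770 windows of 583 spleen-low genes, and 32851 windows in all, and 12 motifs were searched. The PU.1 motif GAGGAAGT was in 5.99% of spleen-high windows, 1.43% of spleen-low windows and 2.44% of all windows, or 2.41% of the windows of all genes tested. In the B cell list 1 of 19 windows held it (5.26%). The IRF motif, a pair of GAAA repeats, was in 4.95% of spleen-high windows and 2.79% of those of genes tested, and the RUNX motif TGTGGTT in 5.13% and 3.46%. The octamer ATGCAAAT, at 1.39% of spleen-high windows, was close to the 1.31% among genes tested. The ETS motif ACCGGAAGT was in 1.04% of spleen-high windows and 1.29% of those of genes tested. A match is a description of the letters and not a binding site, and these shares carry no test. The windows below are stretches around the PU.1 match in 6 spleen-high genes, shown for the distance of the match from the start. Capitals mark the match, on the gene's strand as GAGGAAGT or as its reverse complement ACTTCCTC, and sequences are from RefSeq on GRCm38.p6. Cd72 and Cd37 are B cell surface proteins, Cd5 a T cell surface protein, Inpp5d and Vav1 signalling proteins of white cells, and Mpo the peroxidase of granulocytes.
Cd72, chr4:43454648-43454695, minus strand: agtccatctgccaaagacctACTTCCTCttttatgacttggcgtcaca
Cd37, chr7:45238840-45238884, minus strand: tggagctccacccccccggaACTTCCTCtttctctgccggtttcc
Cd5, chr19:10739000-10739047, minus strand: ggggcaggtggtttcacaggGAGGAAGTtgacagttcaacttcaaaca
Inpp5d, chr1:87620272-87620311, plus strand: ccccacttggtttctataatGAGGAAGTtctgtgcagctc
Vav1, chr17:57279069-57279099, plus strand: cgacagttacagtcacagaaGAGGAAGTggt
Mpo, chr11:87793540-87793587, plus strand: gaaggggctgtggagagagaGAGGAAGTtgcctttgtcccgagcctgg
The match lies 4 bases before the start in Vav1, 13 in Inpp5d, 18 in Cd37, 42 in Cd72, 46 in Cd5 and 217 in Mpo.

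Red pulp macrophage genes were less complete than lymphoid genes, since 3 of 19 were spleen-high (15.8%, beside 6.48% over all genes tested). The median smallest difference over the list was 0.01. The 3 were Spic, Vcam1 and Itgad. Spic, the factor on which red pulp macrophages depend, was at 18.5, 37.9, 24.4, 19.3 and 13.6, while the highest other library, from liver, held 10.5. Its difference was 2.33 ± 0.60 against liver (adjusted p 0.000778). Vcam1, an adhesion molecule of these macrophages, was at 241, 356, 237, 75.2 and 52.8, with a difference of 2.23 ± 0.48 against liver (adjusted p 7.8e-05). Itgad, an integrin chain, was at 17.2, 40.3, 15.5, 2.54 and 2.12, with a difference of 3.65 ± 0.78 against brain. Its largest adjusted p over the 6 organs was 0.00193 (quasi-likelihood test). Adgre1, which encodes the macrophage marker F4/80, was at 32.8, 37.9, 34.1, 1.68 and 4.22 and was not called (0.01 ± 0.72 from liver). Cd163, Slc40a1, Hmox1 and Cd5l, which take part in haemoglobin uptake, iron export, haem breakdown and macrophage survival, were not called, and with library totals 10 of the 19 genes were high, and 7 with all 96 libraries in the fit. Itgad, Adgre1 and Vcam1 were low in libraries 7 and 8 and higher in 1 to 3. Spic varied less. The summed level of the list was 1369, 3087, 1466, 569 and 426 normalised CPM.

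Red cell genes rested largely on 1 library. Of 17, 11 were spleen-high with all 5 libraries and 3 without library 2, namely Gata1, Ermap and Epb42, and the median smallest difference went from 2.41 to 1.03. Without library 2, 1189 genes were spleen-high (5.84%) and 820 spleen-low (4.03%) over all genes tested. The summed level of the 21 listed genes in the table was 10200, 45110, 3151, 3594 and 373, against 736 to 4993 in heart, the organ with the highest median. Gata1, the main factor of red cell formation, was at 18.7, 52.8, 5.44, 6.16 and 1.48. It had 1466 counts in the 5 spleen libraries together and 0 to 2 counts in the libraries of each other organ. Slc4a1, the anion exchanger of the red cell membrane, was at 175, 853, 54.1, 14.1 and 0.815, with a difference of 3.40 ± 0.70 against kidney (adjusted p 4.16e-05). Hbb-bs, a beta globin, was at 3326, 15880, 1082, 775 and 72.1, with a difference of 2.35 ± 0.97 against heart (adjusted p 0.0362). Ermap, a red cell membrane protein, was at 46.2, 134, 14.6, 7.55 and 1.19, and Epb42, which anchors the red cell skeleton, was at 17.9, 73.4, 3.99, 1.48 and 0. Library 2 was highest and library 8 lowest for all 5 of these genes. The calls of Hba-a1, Hba-a2, Hbb-bs, Hbb-bt, Slc4a1, Klf1, Rhd and Car1 were lost without library 2. Counts of the near-identical globin copies cannot be assigned with certainty.

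Library 2 also held transcripts of other organs. Alb, the serum albumin of liver, was at 0.0569, 1906, 12.2, 0.410 and 0.222 in spleen, and Apoa2, a liver apolipoprotein, was at 90.7 and the astrocyte gene Gfap at 7.17 in library 2. The pancreatic acinar list summed to 6.54, 99.8, 4.47, 10.2 and 6.74 in spleen, and the adipocyte list to 180, 27.1, 162, 83.9 and 1.33. None of the 18 pancreatic, 8 adipocyte or 11 mesothelial and smooth muscle genes tested was spleen-high. Umod of kidney was at most 1.79 and Nppa of heart was at 0 in every kept spleen library. The part of such transcripts in the level of library 2 was not tested.

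The motif AGATAA of GATA factors was in 7.12% of spleen-high windows, 4.29% of spleen-low windows and 9.99% of all windows, so over all spleen-high genes it did not stand above the share in all windows, and it was close to the 6.85% among genes tested. In the red cell list 6 of 16 windows held it (37.5%). It is shown here in 3 of those genes, where capitals mark AGATAA or its reverse complement TTATCT. Rhd encodes a red cell membrane protein of the Rh complex.
Epb42, chr2:121037078-121037123, minus strand: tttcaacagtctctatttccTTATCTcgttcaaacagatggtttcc
Rhd, chr4:134864473-134864518, plus strand: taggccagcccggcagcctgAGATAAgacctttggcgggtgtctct
Hbb-bs, chr7:103828113-103828158, minus strand: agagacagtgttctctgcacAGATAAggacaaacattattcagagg
The match is 38 bases before the start in Rhd, 205 in Hbb-bs and 221 in Epb42.

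Granulocyte and platelet genes showed the same dependence in part. Of 15 neutrophil and monocyte genes, 7 were spleen-high with all libraries and 6 without library 2, with a median smallest difference of 1.41 and 0.38. Mpo was at 11.4, 89.0, 10.2, 0.616 and 0.667, and Ltf, which encodes the granule protein lactoferrin, was at 26.8, 193, 14.6, 0.410 and 0.445. S100a9, a calcium-binding protein of neutrophils, was at 44.0, 270.3, 33.6, 4.68 and 2.74, with a difference of 1.97 ± 0.85 against liver (adjusted p 0.0454), and its call was lost without library 2. Of 13 platelet genes, 9 were spleen-high with all libraries and 7 without library 2. Itga2b, the platelet integrin, was at 17.1, 60.2, 22.3, 17.9 and 12.4, with a difference of 2.07 ± 0.44 against kidney (adjusted p 6.68e-05). Pf4, a platelet chemokine, was not called, at 1.13 ± 0.88 from heart. The sum of the neutrophil list was 260, 1445, 294, 84.3 and 53.8, and that of the platelet list 110, 425, 129, 51.9 and 39.0. Library 2 was highest in both.

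**Figure D4:**
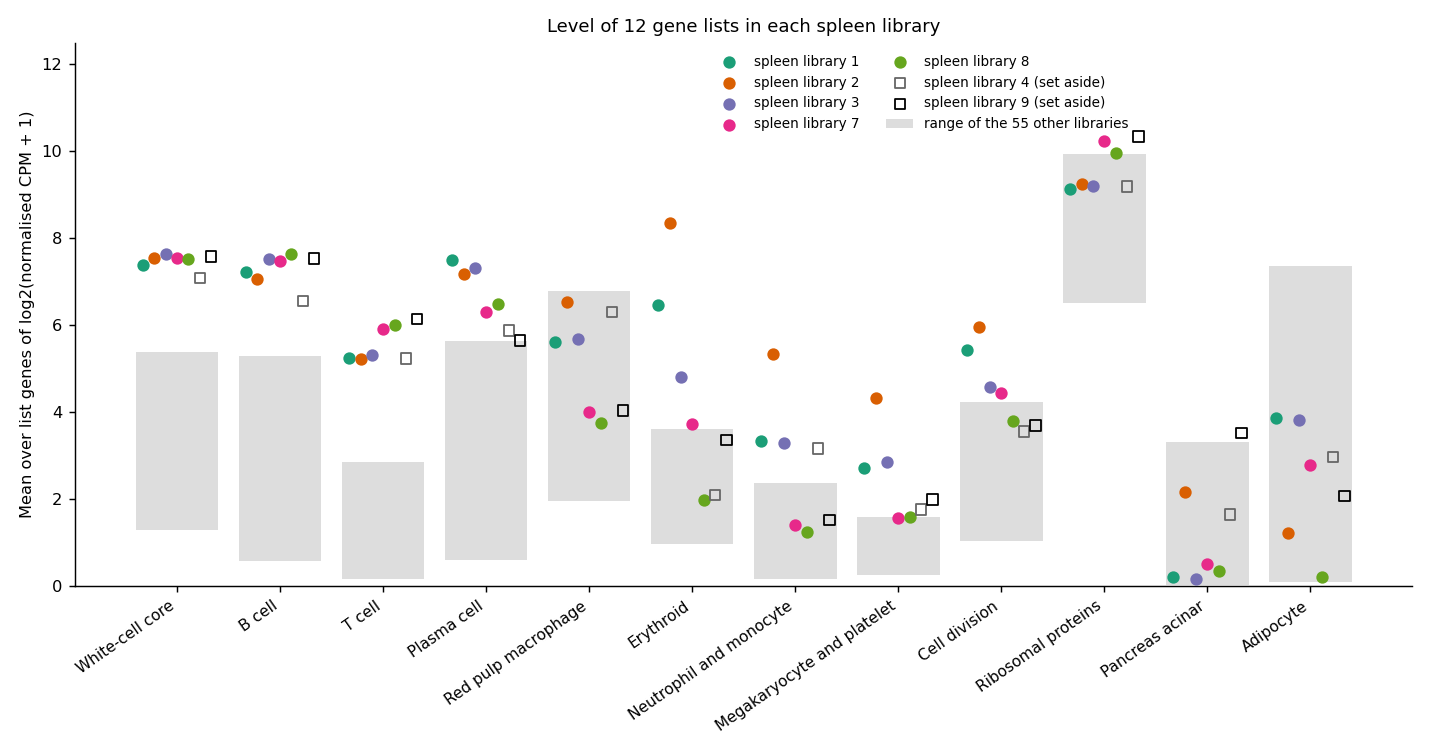
Mean of log2(normalised CPM + 1) over the genes of 12 lists in each of the 5 kept spleen libraries (coloured points), with libraries 4 and 9, set aside, as open squares and the range of the 55 other libraries shaded. The red cell list is at 8.35 in library 2 and 1.97 in library 8, while the T cell list stays between 5.22 and 6.0.

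Few stromal factors of the spleen were called. Tlx1 (ENSMUSG00000025215), the homeobox factor without which no spleen forms, was at 6.08, 11, 7.94, 5.42 and 3.63, and the highest other library, from heart, held 0.918. Its difference was 4.09 ± 0.77 against heart (adjusted p 3.19e-05). It had 631 counts in the 5 spleen libraries and 0 in kidney, small intestine and brain. It was the only one of 10 stromal factors called (10.0%, beside 6.48% over all genes tested). Nkx2-5, another factor of early spleen, was lower than in heart by 4.42 in log2, where its median was 86.5. None of 13 genes of sinus endothelium was spleen-high.

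Of 15 lymphoid stroma genes 6 were spleen-high, all 6 without overlap, among them chemokines of the white pulp. Ccl21a and Ccl19, which draw T cells and dendritic cells, were at 170.2, 157, 86.4, 525.9 and 657 and at 63.7, 59.2, 43.2, 216 and 199. Their differences were 3.60 ± 0.86 against heart (adjusted p 0.000351) and 5.31 ± 0.75 against liver (adjusted p 2.33e-07). Ltb, the lymphotoxin chain that lymphocytes use to signal to stroma, was at 136, 162, 179, 492 and 481, with a difference of 4.67 ± 0.69 against small intestine (adjusted p 9.03e-08). All 3 were higher in libraries 7 and 8 than in libraries 1 to 3. Madcam1, an adhesion molecule of the marginal sinus, was at 9.95, 17.1, 13.6, 22.2 and 19.9, with a difference of 2.69 ± 0.79 against small intestine (adjusted p 0.00387). Coch, a secreted protein of follicular dendritic cells, was at 111, 206, 188, 57.0 and 61.9, with a difference of 2.22 ± 0.56 against brain (adjusted p 0.000424). Cxcl13, which draws B cells, was at 74.5, 62.7, 98.6, 27.8 and 50.1 and was not called, with up to 274 in a liver library.

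Genes of cell division were partly spleen-high. Of 25, 14 were spleen-high, with a median smallest difference of 1.68, and without library 2 the count was 10 and the median 1.28. All of Mcm2 to Mcm7, which form the replicative helicase, were called. Mcm2 was at 67.7, 93.4, 46.9, 39.6 and 27.4, with a difference of 2.24 ± 0.46 against small intestine (adjusted p 4.28e-05). Mki67, which encodes the proliferation antigen Ki-67, was at 197, 343, 88.0, 77.3 and 43.2, with a difference of 2.32 ± 0.67 against small intestine (adjusted p 0.00322). With all 96 libraries in the fit, 2 of the 25 were spleen-high (8.0%, beside 7.62% over all genes tested) with a median of 0.16, and Mcm2 and Mki67 differed from small intestine by 0.86 and 0.93 and were not called. Without library 2, Cdk1, Ccna2, Kif11 and Tpx2 lost their calls. The list summed to 1367, 2025, 776, 736 and 460.

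Of 20 ribosomal protein genes 8 were spleen-high with scaling factors and 12 were called in neither direction, with a median smallest difference of 0.72. With library totals all 20 were high, with a median of 2.16. In none of the 20 were the spleen libraries above all others in normalised CPM. Rps6, a small-subunit protein, was at 714, 809, 725, 1793 and 1479, with a difference of 1.07 ± 0.32 against liver (adjusted p 0.00378). The list summed to 11910, 12940, 12460, 26320 and 21500, so libraries 7 and 8 were the highest. The T cell list summed to 1121, 1156, 1229, 2065 and 2219 in the same order. Ribosomal pseudogenes leave the assignment of these counts uncertain. Of 18 interferon response genes 1 was spleen-high (5.56%, beside 6.48% over all genes tested).

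The genes with the largest smallest difference were chosen by size among 922 spleen-high genes with a mean of 20 CPM or more in spleen. The 15 were Gata1, Apol11b, Ighe, Ltf, Cldn13, Ermap, Btnl10, Mpo, Ngp, Ighg1, Ctse, Epb42, Cd8b1, Camp and BC147527. Ngp and Camp are granule proteins of maturing neutrophils, and Ctse is an aspartic protease. Apart from Gata1, with 0 to 2 counts in each other organ, their smallest fitted differences ran from 5.41 for BC147527 to 6.64 for Apol11b. Cldn13, a claudin, had 1403 counts in spleen and 0 in heart and brain, 1 in kidney, liver and skeletal muscle, and 18 in small intestine. Apol11b was at 35.8, 221, 8.90, 1.31 and 0.741. Library 2 was the highest for it and for Gata1, Ltf, Ermap, Mpo and Epb42, and library 1 for Ighe and Ighg1. Library 1 carried nearly all of the Ighe signal, so a place among these 15 can rest on 1 library. The nearest organ of a spleen-high gene was small intestine for 496 genes (38.4%) and liver for 313 (24.2%). Without small intestine libraries 2 and 14, 1319 genes were spleen-high (6.47%) and 802 spleen-low (3.93%), and the nearest organ was small intestine for 281 of 1319 (21.3%) and liver for 463 (35.1%).

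Genes low in spleen included enzymes of energy metabolism. The 15 chosen by size, among 307 spleen-low genes with a mean of 20 CPM or more in each other organ, were Prkaa2, Usp2, Pdk2, Ank3, Gpd1, Tacc2, Mapre3, Trp53inp2, Tpi1, Dgat2, Srxn1, Me1, Tmem63b, Nr1d1 and Cdkn1a. All but Srxn1 and Cdkn1a were also low with library totals. Prkaa2, a catalytic subunit of the energy-sensing kinase AMPK, was at 1.19, 1.42, 0.385, 0 and 0.296, and brain, the nearest organ, had a median of 20.4. The difference was -4.94 ± 0.64 against brain (adjusted p 1.07e-09). Pdk2, a kinase that holds back pyruvate oxidation, was at 8.64, 8.16, 7.60, 3.49 and 7.34, with a median of 90.6 in brain and a difference of -3.63 ± 0.33 against brain (adjusted p 5.47e-14). Tpi1, a glycolytic isomerase, was at 73.1, 93.2, 68.3, 45.4 and 29.6, with a median of 333 in brain and a difference of -2.48 ± 0.33 against brain (adjusted p 3.71e-09). Gpd1, which makes glycerol phosphate, differed by -3.18 ± 0.45, Dgat2, which completes triglyceride synthesis, by -2.40 ± 0.40, and Me1, which supplies NADPH for lipid synthesis, by -2.33 ± 0.53. Nr1d1, a repressor in the circadian clock, differed by -2.29 ± 0.47.

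Ppargc1a (ENSMUSG00000029167), a coactivator that drives mitochondrial biogenesis, was at 0.625, 0.865, 0.625, 0 and 0.519, and the lowest liver library held 3.4. The difference was -4.81 ± 0.73 against liver (adjusted p 9.93e-08), and it was low also with library totals. Thrb, a thyroid hormone receptor, was at 1.42, 2.53, 1.64, 0.616 and 4.22, with a difference of -2.71 ± 0.30 against skeletal muscle (adjusted p 6.54e-11). Of a list of 16 regulators (nuclear factor one, nuclear receptors and clock factors) 8 were spleen-low and 0 spleen-high, and 4 were low with library totals, among them Thrb, Ppargc1a and Hlf.

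Nuclear genes of the respiratory chain were mostly spleen-low. Of 25, 22 were spleen-low (88.0%, beside 3.95% over all genes tested) and 0 spleen-high. All 25 fitted differences were below 0 against each of the 6 organs. In 13 the spleen libraries lay below all others, which held in 1.13% of all genes tested. The median over the list of each gene's highest difference was -1.11, beside 1.35 over all genes tested. With library totals 7 genes were low (Ndufa9, Ndufv1, Sdhb, Uqcrfs1, Cox7b, Cyc1 and Atp5o), 24 differences stayed below 0 against each organ, and the median was -0.47. Ndufv1, a core subunit of complex I, was at 33.3, 49.2, 34.4, 27.2 and 34.8, with a median of 100 in brain and a difference of -1.50 ± 0.21 against brain (adjusted p 6.17e-09). Sdhb, the iron-sulphur subunit of complex II, was at 34.5, 48.9, 36.3, 36.0 and 33.6, with a difference of -1.21 ± 0.27 against brain (adjusted p 0.000107). Uqcrfs1, the Rieske protein of complex III, was at 45.8, 55.8, 37.5, 53.7 and 35.6, with a difference of -0.91 ± 0.25 against brain (adjusted p 0.0013). Cycs, the electron carrier cytochrome c, differed by -1.26 ± 0.34 and was not called with library totals, at -0.91. Cox5a, Sdhc and Sdhd were not called. Library 2 was the highest of the 5 for Ndufv1, Sdhb and Uqcrfs1.

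**Figure D5:**
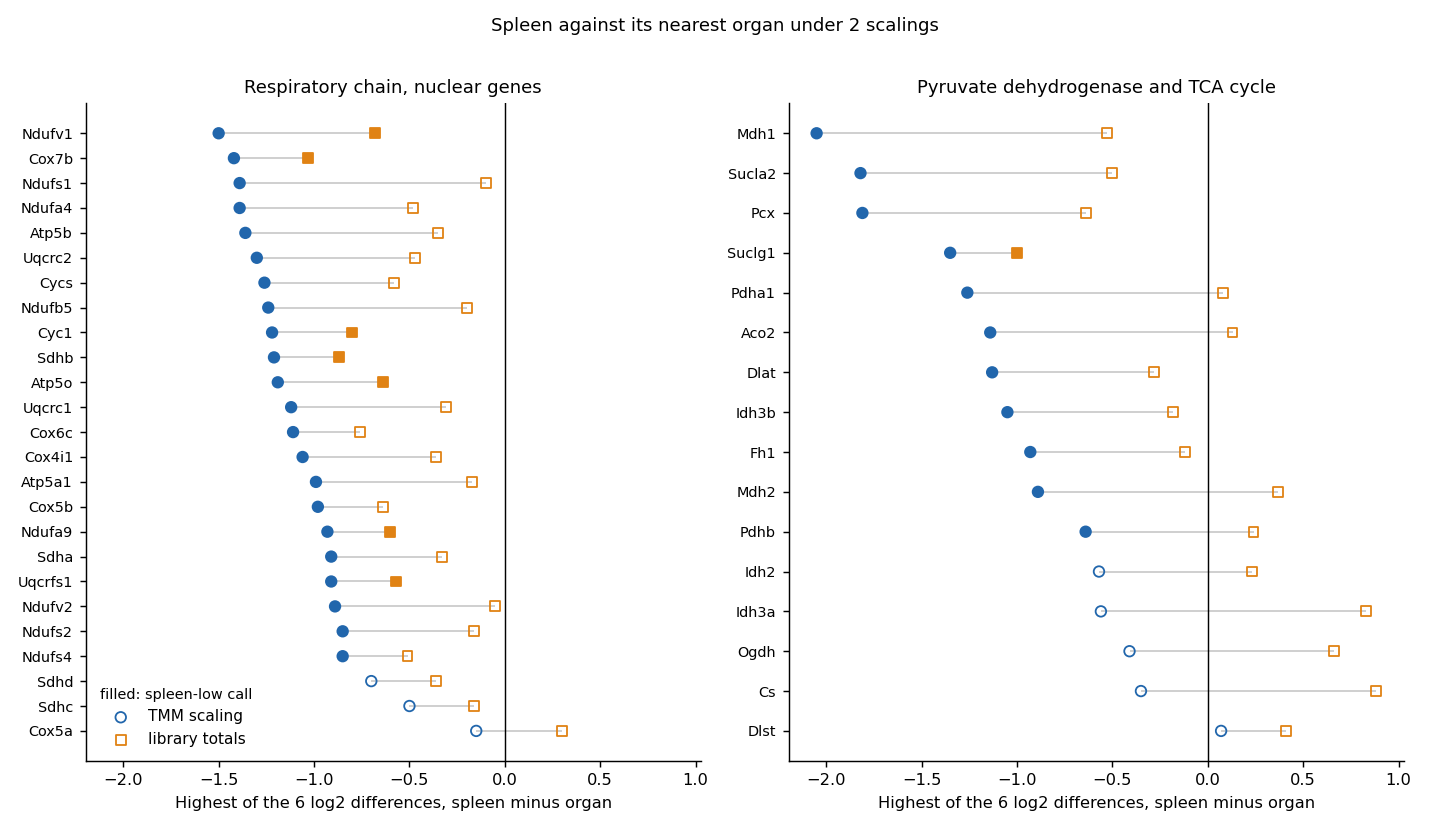
Highest of the 6 log2 differences of spleen from an organ for 25 nuclear genes of the respiratory chain (left) and 16 of the citric acid cycle and pyruvate dehydrogenase (right), with TMM scaling (circles) and with library totals (squares); filled symbols are spleen-low calls. In the left panel all 25 circles and 24 squares lie below 0, and in the right panel 15 circles and 7 squares do.

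Of 16 genes of the citric acid cycle 11 were spleen-low (68.8%, beside 3.95% over all genes tested) and 0 spleen-high. With library totals 1 (Suclg1) was low (6.25%, beside 0.777%), and the median highest difference went from -0.99 to 0.10. Mdh2, the mitochondrial malate dehydrogenase, differed by -0.89 ± 0.22 from brain, and with library totals its highest difference was 0.37. Its direction therefore depends on the scaling. In glycolysis Gapdh was at 554, 658, 508, 322 and 342, with a median of 1426 in brain and a difference of -1.60 ± 0.24 against brain (adjusted p 3.06e-08), and was low also with library totals. None of 16 fatty acid oxidation genes was called in either direction. Of 16 redox and detoxification genes 7 were low (43.8%), and 0 with library totals. Of 24 adhesion and Hippo pathway genes 2 were low (8.33%), and 0 with library totals, and of 14 transport and amino acid genes 4 (28.6%) and 1 (7.14%). Of 12 reference genes 2 were low (16.7%), and with library totals 3 were high and 1 low. Among 14 stem and progenitor genes 4 were high (28.6%) and 1 low (7.14%). Over all genes tested 3.95% were low and 6.48% high, and with library totals 0.777% and 15.0%. Aqp4, a water channel, had 7 counts in the 5 spleen libraries together.

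The motif TGACGTCA, the cAMP response element, was in 4.29% of spleen-low windows, 1.65% of spleen-high windows and 1.55% of all windows, or 2.21% of the windows of all genes tested. In the respiratory chain list 2 of 17 windows held it (11.8%). It is shown in 3 spleen-low genes of mitochondrial metabolism, with the match in capitals, which reads the same on both strands.
Uqcrfs1, chr13:30545318-30545365, minus strand: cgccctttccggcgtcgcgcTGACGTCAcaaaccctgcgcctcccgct
Cycs, chr6:50566711-50566758, minus strand: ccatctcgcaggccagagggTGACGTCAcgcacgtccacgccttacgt
Mdh2, chr5:135778502-135778549, plus strand: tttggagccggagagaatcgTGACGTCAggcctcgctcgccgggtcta
The match is 22 bases before the start in Uqcrfs1, 120 in Mdh2 and 162 in Cycs. The NRF1 motif was in 1.43% of spleen-low windows, close to the 1.27% among genes tested, and the ERR motif TCAAGGTCA in 0.130% and 0.266%.

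Mitochondrially encoded genes took the smallest share of counts in spleen, with a mean of 3.67% ± 1.21 (SD, n = 5), ranging from 2.05% to 4.97%. The means of the other organs ran from 8.87% in brain to 34.98% in heart. These means carry no test, since the 50% limit on this share was part of the selection of libraries. The 10 most abundant genes took 8.18% ± 2.35 (SD, n = 5) of counts in spleen. That was less than in 5 organs (two-sided exact permutation test, p adjusted over the 6 organs 0.0014 to 0.0104). The difference of -0.501 percentage points from brain did not pass (same test, adjusted p 0.921). In kidney, small intestine, heart and brain this share was close to the mitochondrial share, with means of 35.39% and 34.98% in heart. It was further from it in liver (23.79% and 12.59%) and skeletal muscle (32.14% and 21.72%). The 50% limit therefore bears on these p-values too. At a common depth of 6000000 counts, spleen libraries held 20610 ± 3040 genes (SD, n = 5; 15940 to 24460), more than liver at 17080 (exact permutation, adjusted p 0.024) and skeletal muscle at 16230 (adjusted p 0.00978). The other 4 differences did not pass (adjusted p 0.0692 to 0.999). Without library 1, 2, 3 or 8 the difference from liver did not pass either (adjusted p 0.0672), and without library 7 those from kidney (0.0112), small intestine (0.0114) and heart (0.0114) passed. The 6000000 counts include those on mitochondrially encoded genes, so a lower mitochondrial share leaves more of them for other genes. That share and the 50% limit on it therefore bear on the p-values for detected genes too.

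The spleen libraries set aside, 4 and 9, held Pou5f1 at 14.3 and 2.40 CPM. They were not used in the fit that made the calls. Library 4 was above the mean of every organ in 1169 of the 1293 spleen-high genes (90.4%) and library 9 in 1195 (92.4%), against 95.4% to 99.3% in the libraries that made the calls. Of the 787 spleen-low genes, they lay below every organ mean in 704 (89.5%) and 758 (96.3%). Library 4 held Cd79a at 334 and Cd3e at 34.8, and library 9 at 815 and 89.1. Library 4 stood apart in stroma and macrophages, with Tlx1 at 37.1, Spic at 61.5 and Marco, a marginal zone scavenger receptor, at 196, against 10.8 to 19.4 in the kept libraries. Its red cell list summed to 218, below every kept spleen library, and its pancreatic list to 78.6. That of library 9 summed to 333. With all 96 libraries in the fit, 1531 genes were spleen-high (7.62%) and 799 spleen-low (3.98%).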

How the data were processed

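Total RNA was extracted with TRIzol from frozen tissue and made into cDNA libraries by a sequencing company, per the labels' protocols. Of tools and builds, GRCm39 and DESeq2 stand in the submitters' processing notes, without version or role. For aligner, counter and strand setting, nothing is given in the sources used here. Overlapping and antisense genes and close copies are therefore uncertain. Per gene, the authors deposited estimated counts for 96 libraries in 56941 rows, and 26.8% of its values above 0 were not whole (tolerance 1e-06). A second deposited table of normalised signal was not used. Rows without a gene name held at most 0.113% of a library and stayed in the totals.

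Estimated counts were rounded to whole numbers. One edgeR 4.0.16 quasi-likelihood fit (robust, TMM scaling, low counts filtered by organ) in R 4.3.3 covered the 60 kept libraries. Each of the 6 contrasts was adjusted by Benjamini-Hochberg over 19945 genes, and a call needed an adjusted p under 0.05 in the same direction in all 6. In simulated counts with 18337 genes, 100 of 100 genes changed 4-fold and 25 of 100 changed 2-fold were called, with 0 false calls. Apart from the changed genes, the simulation gave every organ the same mean profile, and every gene the same dispersion. It therefore does not cover differences in composition between organs, the choice of scaling or the uneven spread of real spleen libraries. Promoter windows came from RefSeq on GRCm38.p6, an older build than the counts, and were matched by symbol. Shares and permutation tests used scipy 1.17.1, pandas 2.3.3 and numpy 2.4.6 under Python 3.11.15.

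The pairs, the members and the 34 lists (569 genes, of which 564 are in the table) were chosen with earlier results of these data known. Named genes are list members, pair members and the 15 genes of largest nearest-organ difference in each direction with a mean of 20 CPM or more (in spleen, or in each other organ), leaving out predicted, segment, mitochondrial and sex-linked genes. Among 637 pairs of libraries of the same organ 0 were identical. Alternatives were other scalings, tests, filters and thresholds, other rules for keeping libraries, and leaving out each spleen, small intestine and heart library. Those added after seeing the data are named as such below.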

Additional observations from a re-analysis of the deposited data

Results flagged for a closer look

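The gap of the highest or lowest library to its neighbour was set against the whole range for 65 genes in the 5 kept spleen libraries, and for 3 library properties in spleen and in the other organs with 4 to 10 libraries. Of these 80 groups, 7 passed Dixon's 95% limit (0.71 for 5 libraries). Chance passes about 1 in 20 groups where libraries were not selected on the value tested. In spleen, library 1 was far above the other 4 for Ighe, the constant region of IgE, at 178 normalised CPM. Library 7 was far below the others for Pdk2, at 3.49, and library 2 far above them for Sdhb, at 48.9. The 10 most abundant genes took 12.4% of the counts of spleen library 2, far above the other spleen libraries. Elsewhere, small intestine library 15 passed with 46.4% of its counts on mitochondrially encoded genes and 46.9% on its 10 most abundant genes. Liver library 13 passed with 35.6% on its 10 most abundant genes. Libraries were kept by a limit on the mitochondrial share, which set aside small intestine library 5 at 62.3%. Library 6 of that organ, at 78.8%, also exceeded it. Small intestine library 15 is therefore extreme only among the kept libraries, and the chance rate does not apply to the mitochondrial share. The limit bears on the share of the 10 most abundant genes too.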

How the results depend on the processing

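The counts of 1293 spleen-high and 787 spleen-low genes became 2995 and 155 with library totals, 3570 and 128 with limma on log2(CPM + 1), and 400 and 51 at 8-fold or more. Under the other settings they stayed within 1.5 times, for example 1397 and 725 with DESeq2 size factors and 1350 and 785 with DESeq2's own test, which shared 1184 of the high and 748 of the low calls. Without 1 spleen library at a time there were 1189 to 1227 high and 671 to 820 low genes. Without 1 small intestine or heart library at a time there were 1242 to 1314 and 767 to 805, and without small intestine libraries 2 and 14 there were 1319 and 802. Both of these were chosen after seeing the data. Columns of different organs share running numbers, whose meaning the labels do not give. Of 23 pairs of a spleen library and another library with its number, 17 had deviations from their organ means that correlated by more than 0.1 (from -0.13 to 0.47), and in 8 the own number was the highest. The median correlation was 0.18. These values do not settle whether samples with the same number are paired. The main fit used no pairing, since the labels do not say what a number stands for. A fit with the running number as a replicate block, also added after seeing the data, called 1279 high and 868 low genes, of which 1087 and 703 were shared.

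The number of genes detected at a common depth, which includes mitochondrial counts, depended on the libraries. With all libraries, spleen minus heart was 2550 (exact permutation, adjusted p 0.0123) and spleen minus brain was -553 (0.527). Without 1 spleen library at a time, the difference ran from -923 to 1210 against brain, taking the values -67.1 and -65.2 without libraries 2 and 3. It ran from 2560 to 4690 against liver, from 417 to 2550 against kidney, from 2130 to 4260 against small intestine and from 2140 to 4270 against heart.

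For 65 genes, nearly all named in the text, the difference from the nearest organ was followed through these settings, and 65 kept direction and call with DESeq2 size factors and 61 with DESeq2's test. With library totals Wasl and Cttn reversed against skeletal muscle, at 1.04 and 0.02, and the scaling is the only change in that setting. Among the 65, leaving out library 2 ended 5 calls and leaving out library 7 or 8 ended 0. The report names further list members that lost their calls without library 2. In the simulated counts small differences were called less often, with 25 of 100 2-fold changes called.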
